A study of Mus musculus with 7 samples.

Results

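Cholecystokinin and cannabinoid receptor genes were followed here as 3 genes: Cck, which encodes the neuropeptide cholecystokinin, Cckbr, which encodes its brain receptor, and Cnr1, which encodes the cannabinoid receptor CB1. They were chosen by name, as 3 of the 25871 gene columns of the single-nucleus RNA-Seq (snRNA-Seq) tables. ATAC-Seq reads were added for the regions within 100 kb of each gene in the authors' list of accessible regions. The snRNA-Seq sample came from the primary visual cortex (V1) of male C57BL/6J mice, aged 6 to 10 weeks, that carried a pooled AAV9 library of reporters built to be read in SST interneurons. It is 1 sample without an uninjected counterpart, made from 2 animals with 5 inDrops libraries each. The 10 deposited libraries are numbered in 2 sets of 5, which match this design in number, but the labels tie no library to an animal, so they are called library set 1 and 2. The ATAC-Seq samples were nuclei of SST, PV and VIP interneurons from the whole cortex of uninjected mice, aged 6 to 12 weeks, with 2 replicates of each. These mice carried the nuclear envelope tag SUN1-2xsfGFP-6xMYC together with Sst-IRES-Cre, Pv-Cre or Vip-IRES-Cre, so the tagged nuclei were those in which the Cre driver was active.

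Cholecystokinin is among the most abundant neuropeptides of the cortex. It is cut from a precursor, amidated and sulfated, and then acts on G protein-coupled receptors, of which Cckbr is the main form in the brain. CB1 sits on axon terminals and lowers transmitter release when it binds endocannabinoids, lipids made by the postsynaptic cell. In cortex and hippocampus, basket cells that release cholecystokinin are known for their dense CB1, and they stand apart from the basket cells that contain parvalbumin.

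Cck lies on the minus strand at chr9:121489824-121495694, Cckbr on the plus strand at chr7:105425731-105470898 and Cnr1 on the plus strand at chr4:33924593-33948831, all on GRCm38, and no other annotated gene overlaps them. The sequences before the 3 annotated starts are given because ATAC-Seq reads over each start are compared between interneuron types below. They are RefSeq promoter windows on GRCm38, trimmed to the bases before the gene start and written 5′ to 3′ on the strand of the gene, 250 bases for Cck (chr9:121495695-121495944) and Cckbr (chr7:105425481-105425730) and 199 bases for Cnr1 (chr4:33924394-33924592). Capitals mark matches to the searched motifs.
Cck promoter: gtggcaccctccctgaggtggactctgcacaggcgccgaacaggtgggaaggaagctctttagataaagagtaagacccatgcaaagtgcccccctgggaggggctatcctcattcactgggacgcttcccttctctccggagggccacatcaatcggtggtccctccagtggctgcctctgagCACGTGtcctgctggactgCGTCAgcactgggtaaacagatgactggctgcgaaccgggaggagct
Cckbr promoter: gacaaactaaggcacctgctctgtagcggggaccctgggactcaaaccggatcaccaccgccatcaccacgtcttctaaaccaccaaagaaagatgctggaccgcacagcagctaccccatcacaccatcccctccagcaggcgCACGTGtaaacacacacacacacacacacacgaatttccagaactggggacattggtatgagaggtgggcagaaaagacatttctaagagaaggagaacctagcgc
Cnr1 promoter: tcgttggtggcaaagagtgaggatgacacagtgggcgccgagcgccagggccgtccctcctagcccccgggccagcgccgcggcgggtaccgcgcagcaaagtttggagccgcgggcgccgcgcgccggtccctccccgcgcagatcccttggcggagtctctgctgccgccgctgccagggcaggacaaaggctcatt
The motifs searched on both strands were CGTCA (the half-site of the cAMP response element), CACGTG (an E-box), TGANTCA (the AP-1 site), TATAAA (a core promoter box), GGGCGG (a GC box), TAATTA (a homeodomain core) and AGGTCA (a nuclear receptor half-site). The Cck promoter held CACGTG at bases 185 to 190 and CGTCA at bases 204 to 208, and the Cckbr promoter held CACGTG at bases 145 to 150. Among 32851 RefSeq promoters, 6.02% held CACGTG and 17.8% held CGTCA in the first 250 bases of the window. The Cnr1 window held none of the 7 motifs and had the highest GC content, 71.9% against 60.0% for Cck and 53.6% for Cckbr.

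Nuclei were sorted into types by the unique molecular identifiers (UMIs, counts of single captured transcripts) of marker genes other than the 3 members, which are given as "X-like". Above a minimum of 200 non-viral UMIs there were 32335 nuclei, of which 10630 were excitatory-like, 1966 inhibitory-like and 16145 passed no gate. The median depth of a library lay between 612 and 876 UMIs per nucleus, which makes single nuclei sparse, so levels are given as UMIs per 10000 non-viral UMIs summed over the nuclei of a type. Intervals in parentheses are exact 95% Poisson intervals, which cover counting error only, and the values given for libraries are the lowest, median and highest of the 10. With 1 deposited sample, and at most 2 animals behind it, no test between nuclei types was made, and the ratios between the 2 classes, and those of Cck and Cnr1 in VIP-like nuclei, are also given for each library set. The markers chose the nuclei, so their levels describe the gates and do not test them. VIP-like nuclei had Vip at 120 and Sst at 0.112 per 10000, SST-like nuclei had Sst at 173, PV-like nuclei had Pvalb at 14.6, and NPY-like nuclei had Npy at 121 and Lamp5 at 11.1. The summed level of the 10 excitatory markers was 48.6 in excitatory-like nuclei, 2.53 in VIP-like, 1.92 in SST-like, 2.13 in PV-like and 4.22 in NPY-like nuclei. Of lists that no gate used, the 3 markers of interneurons from the medial ganglionic eminence (Lhx6, Sox6, Satb1) summed to 9.21 in SST-like and 5.84 in PV-like nuclei, against 0.730 in VIP-like and 1.06 in NPY-like nuclei. The 6 markers of the caudal eminence (Adarb2, Prox1, Npas1, Cxcl14, Nr2f2, Synpr) summed to 53.3 in VIP-like and 0.427 in PV-like nuclei, but to 14.2 in SST-like nuclei, above the level in NPY-like nuclei. Barcodes with at most 200 UMIs, which may hold free RNA or small nuclei, had Cck at 6.89 (6.51 to 7.28), Cckbr at 0.863 and Cnr1 at 2.24 per 10000. Their oligodendrocyte markers summed to 44.5, against 12.8 in kept nuclei. The part of free RNA in these barcodes, and in each level, was not tested.

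Cck, the ligand, was high in L2/3-like, L4-like and L5 IT-like nuclei and in VIP-like interneurons, and low in SST-like interneurons. Its level was 10.6 (10.4 to 10.8) UMIs per 10000 in excitatory-like nuclei, from 9.42 in the lowest library through a median of 10.5 to 12.3 in the highest. In inhibitory-like nuclei it was 3.73 (3.47 to 4.00), with libraries at 2.93, 3.36 and 5.21. The libraries of the 2 classes did not overlap, and the level was 2.84 times (2.64 to 3.06) higher in excitatory-like nuclei, higher in 10 of 10 libraries, at 2.75 in library set 1 and 2.91 in set 2. Both Cck and Cckbr were at least 2-fold higher in excitatory-like nuclei, a size that 8.26% of 10936 genes reached in this direction.

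Among the named excitatory-like types, Cck was highest in L2/3-like, L4-like and L5 IT-like nuclei, intermediate in L6b-like and lowest in L5 PT-like and L6-like nuclei. Of the 10630 excitatory-like nuclei, 8099 were of no named type. They had Cck at 11.2, Cckbr at 1.53 and Cnr1 at 2.25 UMIs per 10000. The orders of excitatory types given here and below leave these nuclei out. L2/3-like nuclei had 12.8 (12.3 to 13.4), with libraries at 10.9, 13.1 and 15.2. L4-like nuclei had 11.8 (10.4 to 13.4), with libraries at 6.39, 10.7 and 23.1. L5 IT-like nuclei, named after cells that project within the telencephalon, had 10.0 (9.32 to 10.8), with libraries at 7.95, 9.82 and 13.8. The L2/3-like interval lay above that of L5 IT-like nuclei, and the L4-like interval overlapped both. L6b-like nuclei had 6.48 (5.15 to 8.06), with libraries at 0.550, 6.21 and 15.3. L5 PT-like nuclei, named after cells that project below the cortex, had 3.60 (2.96 to 4.35), with a lowest library of 1.53 and a median of 3.33. Projection itself was not measured. The L6b-like interval lay between those of L5 IT-like and L5 PT-like nuclei, but its libraries spanned both, and L5 IT-like nuclei were higher than L6b-like ones in 7 of 10 libraries. L6-like nuclei had 2.79 (2.44 to 3.17), with libraries at 1.44, 2.74 and 5.08. No library of L6-like nuclei reached the lowest library of L2/3-like nuclei, and the L2/3-like level was 4.61 times (4.01 to 5.32) that of L6-like nuclei, higher in 10 of 10 libraries. Of 5096 genes, 6.65% were at least 2-fold higher in L2/3-like than in L6-like nuclei, and Cck was the only member among them.

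Among interneurons, VIP-like nuclei had Cck at 12.0 (10.4 to 13.7), within the interval of L4-like nuclei, but their libraries spread from 4.73 through 9.51 to 23.3, and library set 1 had 14.6 (12.1 to 17.4) against 9.71 (7.84 to 11.9) in set 2. NPY-like nuclei had 4.95 (4.19 to 5.81), with libraries at 1.24, 4.44 and 8.95. PV-like nuclei had 2.42 (2.02 to 2.89), with libraries at 0.527, 2.39 and 3.69. SST-like nuclei had 0.952 (0.697 to 1.27), with libraries at 0, 0.753 and 4.09, and their interval overlapped those of OPC-like nuclei at 0.932 and vascular-like nuclei at 0.850. The VIP-like level was 6.99 times (5.69 to 8.60) that of SST-like and PV-like nuclei together, higher in 10 of 10 libraries. It was 7.59 times in library set 1, 6.20 times in set 2, and 7.89 times without library 1-1, whose SST-like nuclei were far above those of the other libraries. The NPY-like level was 2.89 times (2.31 to 3.62) that of the same nuclei, higher in 9 of 10 libraries. At least 2-fold higher levels were seen for 4.32% of 2962 genes in VIP-like and 3.45% of 3276 genes in NPY-like nuclei, and Cck and Cnr1 were among them in both.

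The shares of nuclei with a Cck UMI separated L2/3-like from VIP-like nuclei, whose levels were alike. A UMI was found in 70.3% of 986 L2/3-like nuclei but in 26.2% of 202 VIP-like nuclei, against 6.55% of 458 vascular-like nuclei, at median depths of 1362, 787 and 1141 UMIs. With each nucleus thinned to 300 UMIs the shares were 29.9%, 19.3% and 2.21%. In SST-like nuclei the share was 7.60%, and 2.76% when thinned. The highest 10% of VIP-like nuclei, 20 nuclei, held 74.2% of their Cck UMIs, while the highest 10% of L2/3-like nuclei held 33.1%. Cck was thus spread over most L2/3-like nuclei and gathered in few VIP-like nuclei.

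Cckbr, the receptor, was found mainly in excitatory-like nuclei. Unlike its ligand, it was not lower in L5 PT-like and L6-like nuclei than in L2/3-like nuclei. Its level was 1.52 (1.46 to 1.59) UMIs per 10000 in excitatory-like nuclei, with libraries at 1.35, 1.54 and 1.79, and 0.486 (0.396 to 0.590) in inhibitory-like nuclei, with libraries at 0.181, 0.447 and 1.04. The libraries did not overlap, and the ratio was 3.13 (2.57 to 3.86), higher in 10 of 10 libraries, at 2.54 in library set 1 and 3.83 in set 2. L5 PT-like nuclei had 1.92 (1.46 to 2.48), L6-like 1.70 (1.43 to 2.01), L6b-like 1.52, L2/3-like 1.52 (1.32 to 1.73), L5 IT-like 1.31 and L4-like 0.910. No neighbours in this order had intervals apart. The L2/3-like level was 0.891 times (0.716 to 1.11) that of L6-like nuclei and was the higher one in 4 of 10 libraries. A Cckbr UMI was found in 20.5% of L5 PT-like nuclei against 1.75% of vascular-like nuclei, at median depths of 1449 and 1141 UMIs.

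Interneurons differed in Cckbr, with PV-like nuclei the highest of the 4 named types. The 671 inhibitory-like nuclei of no named type had 0.774 (0.571 to 1.03) from 48 UMIs, an interval that overlapped the PV-like one. PV-like nuclei had 0.698 (0.489 to 0.966) from 36 UMIs, with libraries at 0, 0.691 and 1.47, and their interval lay above that of astrocyte-like nuclei at 0.250 (0.160 to 0.373). SST-like nuclei had 0.248 (0.128 to 0.434) from 12 UMIs and NPY-like nuclei 0.165 (0.0536 to 0.385) from 5 UMIs. VIP-like nuclei had 1 UMI in 202 nuclei, a level of 0.0562 (0.00142 to 0.313), or 0.117 times (0.00290 to 0.683) that of SST-like and PV-like nuclei together. The VIP-like nuclei were thus high in the ligand and near the lower end for the receptor. In OPC-like nuclei, the precursors of oligodendrocytes, Cckbr had 0 UMIs in 152 nuclei, which allows a share of up to 1.97% of nuclei with a UMI by a floor of 3 nuclei, and 2.40% by the exact two-sided 95% binomial limit. The PV-like level lay below that of barcodes with at most 200 UMIs.

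Cnr1, the cannabinoid receptor, was far higher in VIP-like nuclei than in any other type. In inhibitory-like nuclei it reached 12.0 (11.5 to 12.5) UMIs per 10000, with libraries at 5.12, 12.6 and 16.5, against 2.26 (2.18 to 2.35) in excitatory-like nuclei, with libraries at 1.91, 2.29 and 2.58. The libraries did not overlap, and the ratio was 5.29 (5.01 to 5.58), higher in 10 of 10 libraries, at 5.27 in library set 1 and 5.32 in set 2. Of 10936 genes, 5.56% were at least 2-fold higher in inhibitory-like nuclei, and Cnr1 was the only member among them.

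VIP-like nuclei had Cnr1 at 54.4 (51.0 to 58.0), with libraries from 14.7 through 53.3 to 88.1, and at 61.6 (56.4 to 67.2) in library set 1 and 48.2 (43.9 to 52.8) in set 2. NPY-like nuclei followed at 19.2 (17.7 to 20.9), with libraries at 5.90, 12.2 and 42.3, and SST-like nuclei at 4.24 (3.68 to 4.86), with libraries at 1.79, 4.42 and 5.84. These 3 steps were beyond counting error, although libraries of VIP-like and NPY-like nuclei overlapped. The highest 10% of NPY-like nuclei, 30 nuclei, held 77.7% of their Cnr1 UMIs, against 58.7% for the highest 10% of VIP-like nuclei. The intervals take no account of this gathering in few nuclei. PV-like nuclei, at 2.27 (1.88 to 2.72) with libraries at 0.925, 2.16 and 5.01, lay among the excitatory types and at the level of barcodes with at most 200 UMIs. Compared with SST-like and PV-like nuclei together, Cnr1 was 16.9 times (14.9 to 19.2) higher in VIP-like and 5.97 times (5.20 to 6.86) higher in NPY-like nuclei, each in 10 of 10 libraries. The VIP-like ratio was 15.6 in library set 1 and 17.8 in set 2. A list of 4 genes for cholecystokinin basket cells that no gate used was summed (Sncg, Slc17a8, Krt73, Rgs12). Among interneurons it was also highest in VIP-like nuclei, at 4.32, and next in NPY-like nuclei, at 1.32. PV-like and SST-like nuclei, at 0.271 and 0.124, stood in the reverse of their Cnr1 order, and vascular-like nuclei were at 2.44. In VIP-like nuclei Slc17a8 had 11 UMIs and Sncg 1, most of the sum was Rgs12, and the part of such cells in the Cck and Cnr1 levels was not tested. A Cnr1 UMI was found in 74.8% of VIP-like nuclei against 1.31% of vascular-like nuclei, at median depths of 787 and 1141 UMIs, and in 60.9% of VIP-like nuclei after thinning to 300 UMIs.

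Excitatory types held little Cnr1, and in an order of their own. L5 IT-like nuclei had 3.22 (2.82 to 3.65), L5 PT-like 2.88 (2.30 to 3.55) and L2/3-like 2.60 (2.35 to 2.88), with overlapping intervals. L6-like nuclei had 1.42 (1.17 to 1.70). L4-like nuclei had 0.719 (0.402 to 1.19) from 15 UMIs, at 1.28 in library set 1 and 0.325 in set 2. L6b-like nuclei had 0.240 (0.0495 to 0.702) from 3 UMIs, all in library 1-1, and 0 in the other 9 libraries. The L2/3-like level was 1.84 times (1.49 to 2.28) that of L6-like nuclei, higher in 10 of 10 libraries. Among glia and vessels, Cnr1 ran from 0 of 152 OPC-like nuclei, with the same limits on the share as for Cckbr, and 0.139 in vascular-like nuclei to 0.793 in astrocyte-like nuclei.

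**Figure D1:**
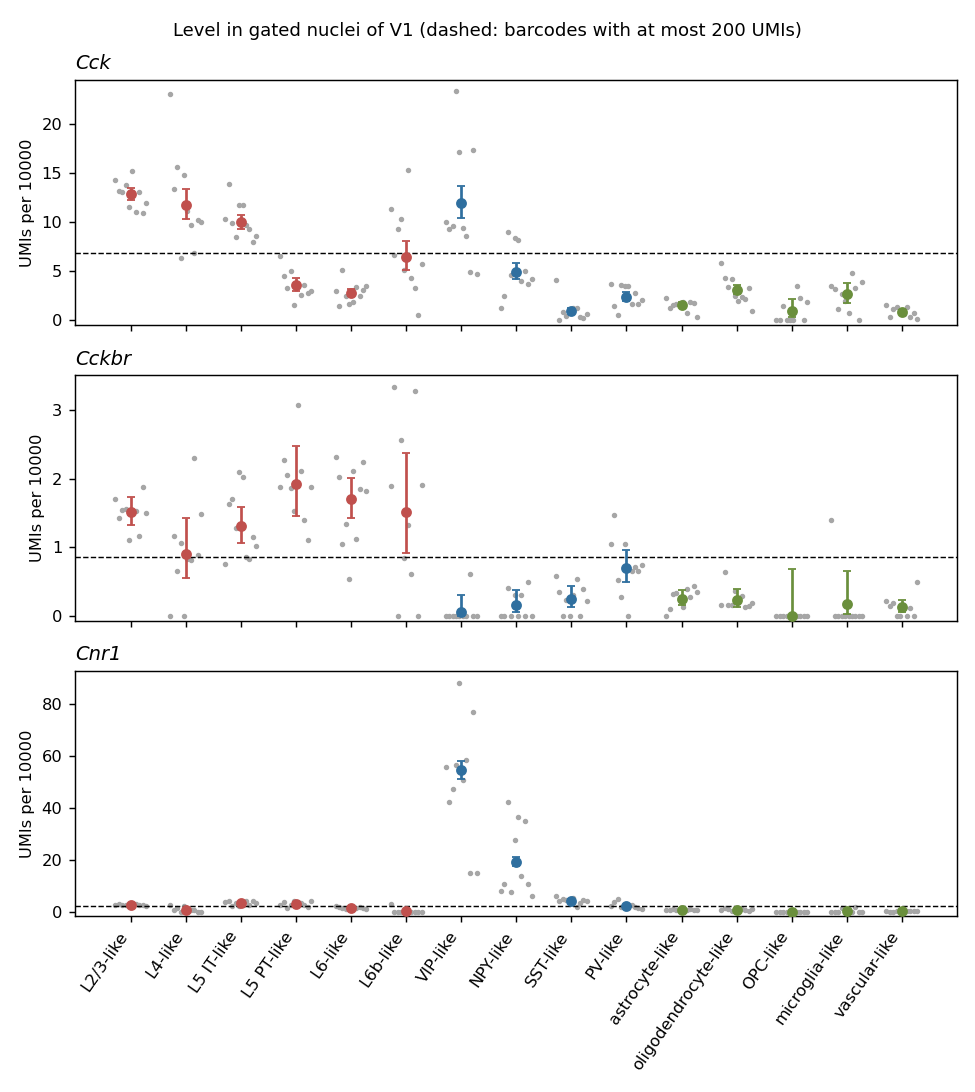
UMIs per 10000 non-viral UMIs (vertical axes) of Cck, Cckbr and Cnr1 in 15 gated nuclei types of V1. Large points are all nuclei of a type with exact 95% Poisson intervals, small grey points are the 10 libraries, colours are excitatory (red), interneuron (blue) and glial or vascular (green) types, and the dashed line is the level in barcodes with at most 200 UMIs. Cck was high in L2/3-like, L4-like, L5 IT-like and VIP-like nuclei, Cckbr in excitatory types, and Cnr1 in VIP-like nuclei at 54.4.

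Cck and Cnr1 were high in the same VIP-like nuclei. In the 51 VIP-like nuclei without a Cnr1 UMI, Cck was 0.777 (0.160 to 2.27) per 10000, and in the 77 nuclei with 1 to 2 Cnr1 UMIs it was 2.15 (1.11 to 3.76). It was 14.7 (11.4 to 18.7) in the 51 nuclei with 3 to 9 Cnr1 UMIs and 34.3 (28.7 to 40.7) in the 23 nuclei with 10 or more, which came from 8 libraries. The share of nuclei with a Cck UMI rose over these bins from 3.92% through 9.09% and 49.0% to 82.6%. The median depth was 784, 676, 844 and 1455 UMIs in the 4 bins, and the excitatory markers summed to 2.33, 1.97, 1.97 and 4.19 per 10000. The part of depth and of mixed nuclei in the highest bin was not tested.

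The VIP-like nuclei with 10 or more Cnr1 UMIs differed from the others in further genes. Their Vip was 46.1 (39.6 to 53.5) per 10000, against 127 (116 to 139) in VIP-like nuclei without a Cnr1 UMI. Htr3a, an ionotropic serotonin receptor, was 18.3 (14.3 to 23.2) against 1.55 (0.570 to 3.38), and Rgs12, a regulator of G protein signalling, was 10.7 (7.71 to 14.6) against 1.04 (0.282 to 2.65). Calb2, the calcium-binding protein calretinin, had 0 UMIs in the 23 nuclei, against 6.48 (4.19 to 9.56) in those without Cnr1. Sst had 0 UMIs in both.

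Nuclei rich in Cnr1 were found outside the VIP gate too. Of the 53 inhibitory-like nuclei with 10 or more Cnr1 UMIs, 23 were VIP-like, 11 NPY-like and 19 of no named type, and none was SST-like or PV-like. The 11 NPY-like nuclei had Cck at 31.2 (23.9 to 40.1) per 10000, with a Cck UMI in all 11, against 3.83 (2.99 to 4.84) in the 192 NPY-like nuclei without a Cnr1 UMI. Their Npy was 20.0 (14.2 to 27.3) against 146 (141 to 152), and Lamp5, a marker of neurogliaform cells, had 0 UMIs against 10.5 (9.03 to 12.1). They came from 7 libraries, with a median depth of 1717 UMIs against 871 and the excitatory markers at 5.12 against 4.11. The 19 inhibitory-like nuclei of no named type had Cck at 27.1 (21.3 to 34.1), against 2.47 (2.04 to 2.97) in the 517 such nuclei without Cnr1, with the excitatory markers at 4.77 against 2.71.

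No steady rise of Cck with Cnr1 was seen in SST-like, PV-like or L2/3-like nuclei. None of these types had a nucleus with 10 or more Cnr1 UMIs, so that bin could not be compared. SST-like nuclei had Cck at 0.994, 0.468 and 2.43 per 10000 with 0, 1 to 2 and 3 to 9 Cnr1 UMIs, and PV-like nuclei had 2.30, 3.13 and 1.09. L2/3-like nuclei had 12.1, 15.1 and 13.6. The bin of 3 to 9 held only 22 SST-like, 10 PV-like and 27 L2/3-like nuclei. NPY-like nuclei had 3.83, 2.19 and 1.36 in these 3 bins, so in this type Cck was high only with 10 or more Cnr1 UMIs. No excitatory-like nucleus of 10630 had 10 or more Cnr1 UMIs.

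**Figure D2:**
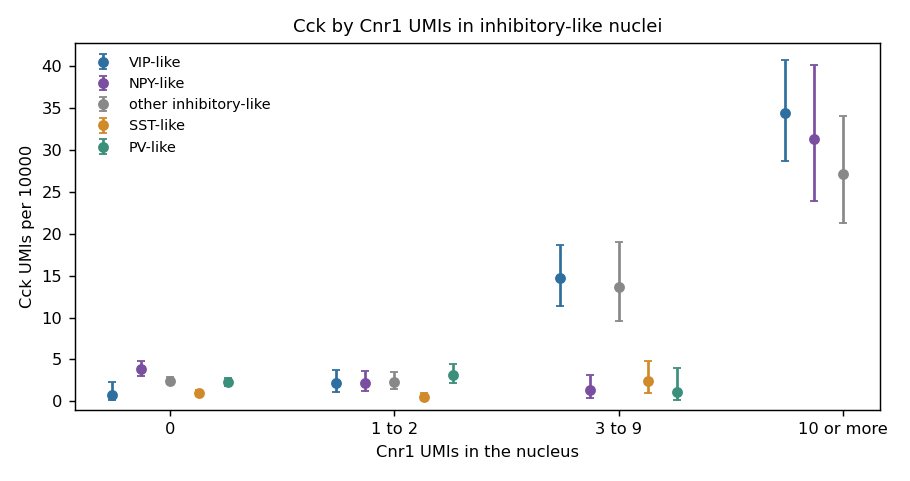
Cck UMIs per 10000 (vertical axis) in VIP-like, NPY-like, SST-like, PV-like and other inhibitory-like nuclei grouped by the number of Cnr1 UMIs in the nucleus (horizontal axis). Points are all nuclei of the group and bars are exact 95% Poisson intervals. With 10 or more Cnr1 UMIs, Cck was 34.3 in VIP-like, 31.2 in NPY-like and 27.1 in other inhibitory-like nuclei.

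Both genes differed between subsets of VIP-like nuclei set by a subtype marker, while the markers of NPY-like and SST-like nuclei gave a mixed picture. VIP-like nuclei with a Calb2 UMI (46 nuclei) had Cck at 1.82 (0.787 to 3.59) and those without (156) had 15.3 (13.3 to 17.5), a ratio of 8.38 that ran from 6.90 to 15.6 when each library was left out in turn. The value of 15.6 was that without library 1-2, and the nuclei with Calb2 held only 8 Cck UMIs in all. The library sets differed in size, with Cck at 4.45 with and 17.0 without Calb2 in set 1, and at 0.355 and 13.6 in set 2. Their Cnr1 was 20.3 (16.3 to 25.0) against 65.6 (61.3 to 70.1), 3.23 times higher without Calb2 (2.97 to 3.94 over left-out libraries). Nuclei with an Htr3a UMI (49) had Cck at 24.2 (20.3 to 28.6) against 6.26 (4.93 to 7.83) and Cnr1 at 107 (98.8 to 116) against 29.8 (26.8 to 33.1). The Calb2-containing VIP-like nuclei were thus the low side and the Htr3a-containing ones the high side for both genes. The same direction as for Htr3a was seen with Tac2, the precursor of neurokinin B, with Cck at 22.2 against 5.90, and with Cxcl14, a chemokine outside the gate markers, with Cck at 18.2 against 5.34. It was also seen with Npy (28 nuclei), with Cck at 31.5 (25.2 to 38.8) against 8.38 (6.98 to 9.97) and Cnr1 at 95.9 against 46.8. Calb2, Htr3a and Tac2 are themselves among the 5 markers of the VIP gate, and a nucleus without a UMI of a marker may still express it.

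In NPY-like nuclei, Cnr1 was 89.3 (81.0 to 98.3) with a Cxcl14 UMI (42 nuclei) and 6.40 (5.46 to 7.46) without (262), a ratio of 14.0 (12.0 to 15.0 over left-out libraries). Cck was 15.4 (12.0 to 19.3) against 3.05 (2.41 to 3.80). Lamp5 went the other way, with Cnr1 at 9.76 (8.37 to 11.3) in the 173 nuclei with a Lamp5 UMI and 33.0 (29.8 to 36.3) in the 131 without, and Cck at 3.46 against 7.11. The share of nuclei with a Cnr1 UMI ran against this level, at 39.9% with and 32.8% without Lamp5, and up to 75 Cnr1 UMIs lay in 1 nucleus without Lamp5. Ndnf, likewise found in neurogliaform cells, gave the direction of Lamp5 for Cck but not for Cnr1. It left Cnr1 at 20.5 (17.1 to 24.4) in the 53 nuclei with a UMI and 18.9 (17.2 to 20.7) without, although a Cnr1 UMI was in 69.8% against 29.9% of nuclei, and Cck was at 1.43 (0.654 to 2.72) against 5.87 (4.94 to 6.92). With Id2, a transcriptional inhibitor, Cnr1 was at 22.2 (19.8 to 24.9) against 16.9 (15.0 to 18.9) and Cck at 6.34 against 3.85. Lamp5, Ndnf and Id2 are themselves among the 5 markers of the NPY gate. A nucleus without a UMI of one of them passed the gate by the others, so these splits are tied to the gate.

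In SST-like nuclei, Cnr1 was 2.41 (1.72 to 3.28) with a UMI of Crhbp, which binds corticotropin-releasing hormone, and 5.20 (4.44 to 6.06) without. With Npy it was 3.52 (2.89 to 4.25) against 5.53 (4.48 to 6.76). The intervals overlapped for Grin3a, a glutamate receptor subunit, at 4.45 (3.76 to 5.23) against 3.81 (2.90 to 4.91), and for Calb1, the calcium-binding protein calbindin, at 3.58 (2.80 to 4.51) against 4.72 (3.95 to 5.59). The 2 library sets differed for Npy, with Cnr1 at 4.51 against 5.39 in set 1 and 2.68 against 5.62 in set 2, and gave 2.90 against 5.95 and 1.96 against 4.68 for Crhbp. For Cck the intervals overlapped with each of the 4 markers. Crhbp and Grin3a are themselves among the markers of the SST gate, and Npy is a marker of the NPY gate, so these splits are tied to the gates.

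**Figure D3:**
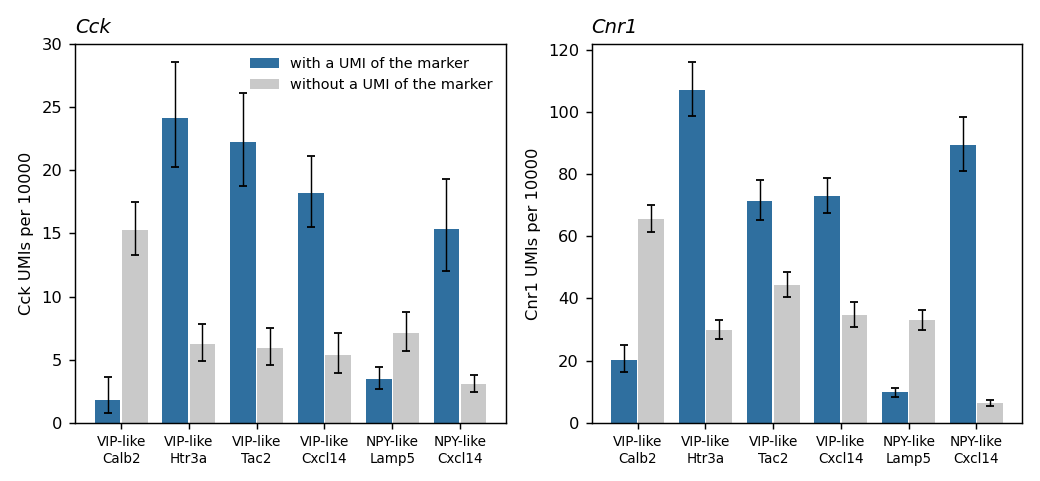
UMIs per 10000 of Cck (left) and Cnr1 (right) in VIP-like and NPY-like nuclei with (blue) and without (grey) a UMI of the marker named under each pair of bars. Bars are all nuclei of the subset with exact 95% Poisson intervals. Both genes were lower with Calb2 or Lamp5 and higher with Htr3a, Tac2 or Cxcl14.

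The genes whose log2 levels over the 15 types were most like those of each member were sought among 7010 genes with at least 500 UMIs. For Cck they were Cdk14, a cyclin-dependent kinase (Pearson's r = 0.914), Olfm1, a secreted olfactomedin protein (0.859), and Kcnq5, a potassium channel subunit (0.857). For Cckbr they were Ift57, of intraflagellar transport (0.924), Gm17167 (0.918) and Macrod2 (0.915). For Cnr1 they were Srm, spermidine synthase (0.904), Rab3c, a small GTPase of synaptic vesicles (0.879), and Usp11, a deubiquitinase (0.864). A high r does not give a like size of difference. Srm was at 0.730 UMIs per 10000 in VIP-like and 0.455 in SST-like nuclei, where Cnr1 was at 54.4 and 4.24. The members were less like each other, with r of 0.478 for Cck and Cckbr, 0.492 for Cck and Cnr1 and 0.0513 for Cckbr and Cnr1. These coefficients describe 15 types that share libraries and differ in depth.

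Of 9 genes that process cholecystokinin or bind it, 5 were at least 2-fold higher in a named type than over all gated nuclei. Of 14 genes of endocannabinoid signalling, 4 were. Among 7078 genes with at least 500 UMIs over gated nuclei, 30.5% reached this size. The 2 lists were counted without that minimum and hold genes below it, so the shares are not on the same footing. Pam, the enzyme that amidates peptides, was at 3.99 (3.11 to 5.03) UMIs per 10000 in VIP-like and 3.33 in SST-like nuclei. Cpe, a carboxypeptidase of peptide precursors, reached 46.0 in astrocyte-like nuclei, and Ctsl, a cathepsin that can cut the precursor, reached 10.8 in microglia-like and 3.17 in astrocyte-like nuclei. Tpst1 and Tpst2, which sulfate tyrosines, were 2.28-fold and 2.55-fold over all gated nuclei in oligodendrocyte-like and vascular-like nuclei. Pcsk2, a convertase of peptide precursors, was under the 2-fold mark in every type, at 10.8 in excitatory-like and 2.25 in inhibitory-like nuclei. Its highest level, 11.6, was in L6-like nuclei, and interneurons had 4.55 in VIP-like, 1.61 in SST-like and 1.09 in PV-like nuclei. Cckar, the other cholecystokinin receptor, had 36 UMIs over all gated nuclei, too few to give a type.

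Among the endocannabinoid genes, Mgll, which degrades 2-arachidonoylglycerol, was highest in NPY-like nuclei at 3.96 (3.28 to 4.74), against 1.68 in VIP-like nuclei. Ptgs2, a cyclooxygenase, was at 1.87 (1.66 to 2.11) in L2/3-like nuclei, and Naaa and Abhd4, of N-acylethanolamine turnover, were at 2.92 and 2.27 in astrocyte-like nuclei. Faah, which degrades anandamide, had its highest level, 2.69, in L2/3-like nuclei and was at 0.449 in VIP-like nuclei, under 2-fold over all gated nuclei. Dagla, which makes 2-arachidonoylglycerol, was at 1.38 in excitatory-like, 0.952 in inhibitory-like and 0.393 in VIP-like nuclei. None of the 14 genes passed the 2-fold mark in VIP-like nuclei, and 6 of them had fewer than 30 UMIs even in their highest type. Cnr2, the other cannabinoid receptor, had 87 UMIs over all gated nuclei.

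ATAC-Seq counts reads from open chromatin, and 131 regions of the authors' list lay within 100 kb of the 3 genes. They were 59 at Cck, 44 at Cckbr and 28 at Cnr1, of which 9, 7 and 4 had enough reads to be tested. The list joins peaks of these samples and of other cortical experiments, so a region need not be open in SST, PV or VIP nuclei. Each sample held between 1801883 and 2256073 reads in all regions, and the median region near a member had between 10.5 and 22 reads over the 6 samples, so low accessibility cannot be told from lack of depth. These are bulk samples, in which fewer open nuclei and less opening per nucleus cannot be told apart. The samples carried their labels in the regions of their own marker genes. Regions of Sst had 44 and 60 reads in SST samples and 4 to 11 in the others, regions of Vip had 43 and 55 in VIP samples and 5 to 10 in the others, and regions of Pvalb had 65 and 77 in PV samples and 25 to 40 in the others. Each replicate was a separate experiment on nuclei of 1 animal, so the tests measure the spread between 2 animals of a type.

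Of the 20 tested regions, 2 differed between SST and PV, both higher in PV, 5 between SST and VIP and 7 between PV and VIP at an adjusted p of 0.05 (edgeR quasi-likelihood test, Benjamini-Hochberg over 40338 regions). The background was 8.29% of regions for SST against PV (4.33% higher in PV), 36.3% for SST against VIP and 49.1% for PV against VIP, against 10%, 25% and 35% of the 20, so the regions near the members did not differ more often than others in the comparisons with VIP. At an unadjusted p under 0.05 the 3 counts were 6, 5 and 9. The 14 called differences kept their direction in every alternative analysis, and 6 of them were called in every alternative that gave an adjusted p. These 6 were both differences 37.1 kb upstream of Cck, PV against VIP 56.0 kb upstream of Cck, in Trak1 and in the Cckbr intron, and SST against VIP 3.65 kb upstream of Cnr1. The other 8 were lost without the filter on low counts.

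The clearest region near Cck was an intergenic one at chr9:121532397-121533203, 37.1 kb upstream of the start, which had nearly all its reads in VIP samples. There were 22 and 20 reads in VIP replicates 1 and 2, 0 and 1 in PV and 0 and 0 in SST. The groups did not overlap, and the authors' peak lists have a peak there in both VIP replicates and in no other sample. Against SST, where both replicates were at 0, VIP was at least 6.73-fold higher with a floor of 3 reads per library (edgeR adjusted p = 9.69e-05), and PV was lower than VIP by a log2 difference of -4.90 ± 0.83 (SE, n = 2 and 2, edgeR adjusted p = 0.000233). Both calls held in every alternative that gave an adjusted p. Its mean phyloP conservation score, 0.326, was higher than that of the Cck start region, 0.0344. The central 300 bases, chr9:121532650-121532949 on GRCm38, plus strand, are given as the sequence under the largest difference, with motif matches in capitals.
Cck 37.1 kb upstream: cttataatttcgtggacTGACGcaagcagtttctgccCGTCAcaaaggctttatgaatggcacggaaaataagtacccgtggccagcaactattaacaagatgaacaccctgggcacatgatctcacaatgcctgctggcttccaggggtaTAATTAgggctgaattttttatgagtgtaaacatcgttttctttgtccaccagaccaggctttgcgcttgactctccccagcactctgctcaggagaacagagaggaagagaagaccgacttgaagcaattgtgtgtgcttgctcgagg
They held the half-site of the cAMP response element as TGACG at bases 18 to 22 and CGTCA at bases 38 to 42, and TAATTA at bases 152 to 157. Of the central 300 bases of 323360 regions, 13.7% held CGTCA and 4.91% TAATTA on either strand.

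The region over the Cck start itself, chr9:121495364-121496152, which covers the promoter printed above, followed the same order with less certainty. It had 16 and 20 reads in VIP, 6 and 7 in PV and 0 and 10 in SST samples. VIP was above the other samples without overlap. The SST minus VIP log2 difference was -1.78 ± 0.66 (SE, edgeR adjusted p = 0.0439). It was lost without SST replicate 1 (-0.89, edgeR adjusted p = 0.239) and without VIP replicate 2 (-1.80, edgeR adjusted p = 0.0865). PV minus VIP was -1.25 (edgeR adjusted p = 0.11), and it passed without SST replicate 1 (-1.31, edgeR adjusted p = 0.0195) or SST replicate 2 (-1.31, edgeR adjusted p = 0.0219).

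The other called regions near Cck did not share this order. At chr9:121551367-121552115, intergenic and 56.0 kb upstream, reads were 27 and 23 in PV, 18 and 12 in SST and 6 and 1 in VIP samples. VIP was the lowest without overlap. The PV minus VIP difference was 2.98 ± 0.59 (SE, edgeR adjusted p = 0.000684) and SST minus VIP was 2.12 ± 0.64 (SE, edgeR adjusted p = 0.015). The latter was lost without VIP replicate 2 (1.19, edgeR adjusted p = 0.248) and without SST replicate 1 (1.68, edgeR adjusted p = 0.061). The region with most reads, in an exon of the neighbouring gene Trak1 at chr9:121403043-121403799 and 92.3 kb downstream of the Cck start, had 76 and 104 reads in VIP, 60 and 76 in SST and 32 and 32 in PV samples. Here PV minus VIP was -1.28 ± 0.29 (SE, edgeR adjusted p = 0.00158). SST minus PV was 0.94 ± 0.29 (SE, edgeR adjusted p = 0.0528), and it passed without SST replicate 1 (1.05, edgeR adjusted p = 0.00371) or SST replicate 2 (0.90, edgeR adjusted p = 0.0468). Over this locus, then, VIP was highest at the start, 37.1 kb upstream and in the Trak1 exon, and lowest 56.0 kb upstream. In the Trak1 exon SST minus VIP was not called (edgeR adjusted p = 0.331). A region in an exon of Cck that holds a further transcript start, chr9:121493997-121494856, had 14 and 16 reads in PV, 9 and 13 in VIP and 7 and 6 in SST samples, with no called difference.

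Near Cckbr, both called regions lay in the gene and were most open in PV samples. The region over its start, chr7:105425311-105426335, had 16 and 16 reads in PV, 2 and 4 in VIP and 2 and 7 in SST samples. PV did not overlap the others. In log2 terms PV minus VIP was 2.57 ± 0.61 (SE, edgeR adjusted p = 0.00234), a call that was lost without the filter on low counts (edgeR adjusted p = 0.0711), and SST minus PV was -1.95 ± 0.56 (SE, edgeR adjusted p = 0.0391). The SST minus PV call was lost in turn without PV replicate 1 (-1.99, edgeR adjusted p = 0.264), PV replicate 2 (-1.88, edgeR adjusted p = 0.289) or SST replicate 1 (-1.37, edgeR adjusted p = 0.138).

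The intronic region 12.6 kb into Cckbr, chr7:105437795-105438933, had 15 and 23 reads in PV, 2 and 1 in VIP and 2 and 4 in SST samples. Again PV did not overlap the others. PV minus VIP was 3.76 ± 0.67 (SE, edgeR adjusted p = 0.000315), a call held in every alternative, and SST minus PV was -2.76 ± 0.59 (SE, edgeR adjusted p = 0.00999), lost without PV replicate 2 (-2.35, edgeR adjusted p = 0.311). SST and VIP did not pass against each other at the start or in the intron. The central 300 bases of the intronic region, chr7:105438214-105438513 on GRCm38, plus strand, are given as the sequence with the largest difference at the receptor.
Cckbr intron: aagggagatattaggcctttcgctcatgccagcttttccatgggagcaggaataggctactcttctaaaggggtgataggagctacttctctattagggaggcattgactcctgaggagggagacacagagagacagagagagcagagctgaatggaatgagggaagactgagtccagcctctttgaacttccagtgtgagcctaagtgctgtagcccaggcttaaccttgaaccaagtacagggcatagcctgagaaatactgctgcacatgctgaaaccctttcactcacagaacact
They held none of the 7 motifs. The most read region near Cckbr, 25.5 kb upstream at the start of Fam160a2 (chr7:105399824-105400599), had 237 and 228 reads in PV, 222 and 222 in VIP and 244 and 185 in SST samples, with overlapping groups and a smallest edgeR adjusted p of 0.301.

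Near Cnr1, the start was open alike in the 3 types and the 2 called regions upstream were least open in VIP samples. The start region, chr4:33924205-33925335, had 64 and 70 reads in VIP, 59 and 44 in PV and 59 and 47 in SST samples. The values lay close together. The SST minus VIP and PV minus VIP log2 differences were -0.27 ± 0.29 and -0.18 ± 0.29 (SE, edgeR adjusted p from 0.5 to 0.902 over the 3 comparisons). All 6 samples have a peak there in the authors' lists, and its mean phyloP score of 0.834 was the highest among the start, called and most read regions, 10 in all.

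The region 3.65 kb upstream, chr4:33920613-33921284, had 28 and 36 reads in SST, 16 and 12 in PV and 4 and 7 in VIP samples. The 3 types did not overlap. SST minus VIP was 2.57 ± 0.46 (SE, edgeR adjusted p = 0.000359), a call held in every alternative. PV minus VIP was 1.53 ± 0.51 (SE, edgeR adjusted p = 0.0203), and leaving out any 1 of these 4 samples ended that call. The value was 1.30 without PV replicate 1 (edgeR adjusted p = 0.164), 1.64 without PV replicate 2 (0.0559), 1.14 without VIP replicate 1 (0.193) and 1.76 without VIP replicate 2 (0.0812). The central 300 bases, chr4:33920798-33921097 on GRCm38, plus strand, are given because the difference ran against the order of Cnr1 RNA, which was highest in VIP-like nuclei.
Cnr1 3.65 kb upstream: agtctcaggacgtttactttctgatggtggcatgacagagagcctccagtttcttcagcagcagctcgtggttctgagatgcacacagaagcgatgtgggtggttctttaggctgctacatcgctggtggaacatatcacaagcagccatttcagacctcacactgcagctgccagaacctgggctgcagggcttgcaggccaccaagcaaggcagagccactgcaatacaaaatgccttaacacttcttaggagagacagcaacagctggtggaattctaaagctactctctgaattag
They held none of the 7 motifs.

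The region 1.19 kb upstream, chr4:33923063-33923750, had 17 and 6 reads in SST, 14 and 12 in PV and 3 and 4 in VIP samples, and no peak list covers it. VIP was again lowest without overlap. PV minus VIP was 2.05 ± 0.65 (SE, edgeR adjusted p = 0.0152), lost without PV replicate 1 (1.93, edgeR adjusted p = 0.0642), VIP replicate 1 (1.82, 0.0668) or VIP replicate 2 (2.06, 0.0635). SST minus VIP was 1.76 ± 0.67 (SE, edgeR adjusted p = 0.0477), lost without VIP replicate 1 (1.57, edgeR adjusted p = 0.152), VIP replicate 2 (1.79, 0.146) or SST replicate 1 (0.70, 0.599). A change of scaling to RLE size factors also ended it (1.71, edgeR adjusted p = 0.0542). The remaining tested region, 734 bases upstream at chr4:33923559-33924159 and overlapping the former, did not share this order. It had 25 and 21 reads in VIP, 10 and 11 in PV and 24 and 14 in SST samples, and PV minus VIP was -0.93 ± 0.46 (SE, edgeR adjusted p = 0.102). Among regions with too few reads to test, 1 in a Cnr1 intron, chr4:33941418-33942153, had 8 and 16 reads in VIP, 1 and 2 in PV and 3 and 3 in SST samples, with a peak in both VIP replicates and in no other sample. VIP was thus lowest in 2 of the 3 tested regions upstream of Cnr1, and not in the one nearest to the start nor at the start. The intronic region was chosen after its values were seen.

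**Figure D4:**
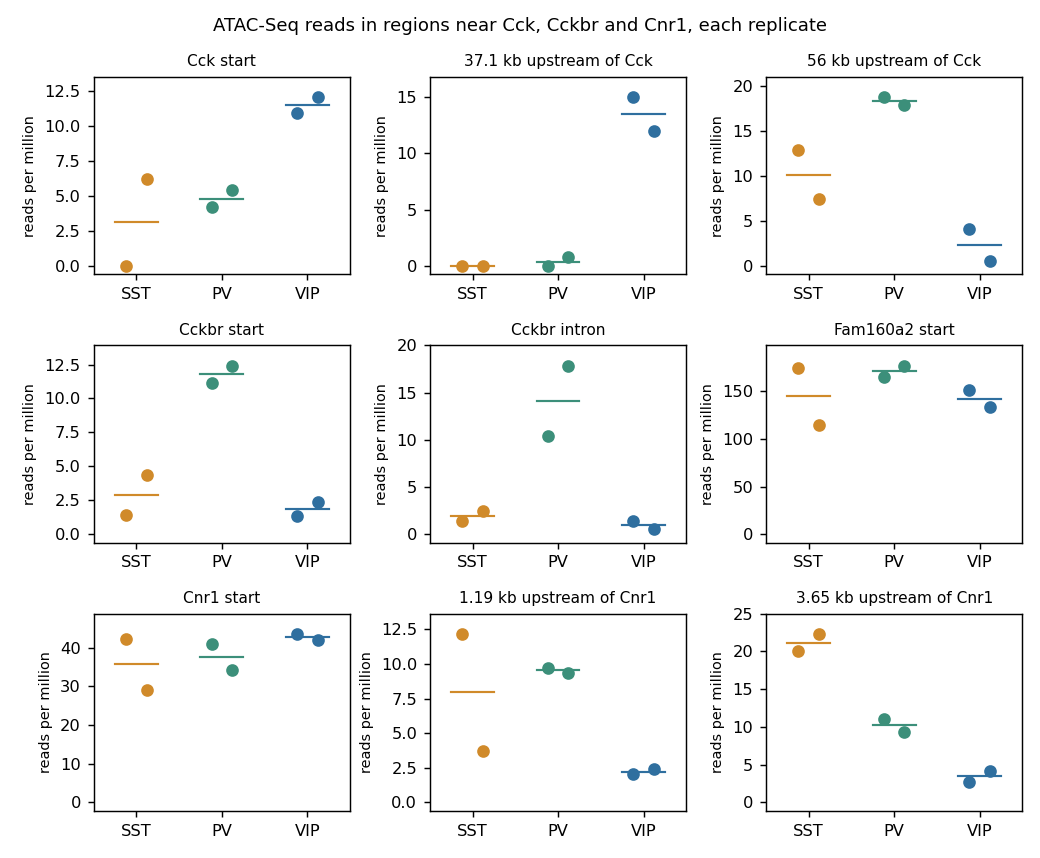
Reads scaled by the TMM library size (RPM, vertical axes, each from 0 with its own range) in 9 regions near Cck (top), Cckbr (middle) and Cnr1 (bottom) in SST, PV and VIP samples. Points are the 2 replicates and lines their mean. VIP was highest at the Cck start and 37.1 kb upstream, PV at the Cckbr start and intron, and VIP lowest at the 2 called regions upstream of Cnr1.

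**Figure D5:**
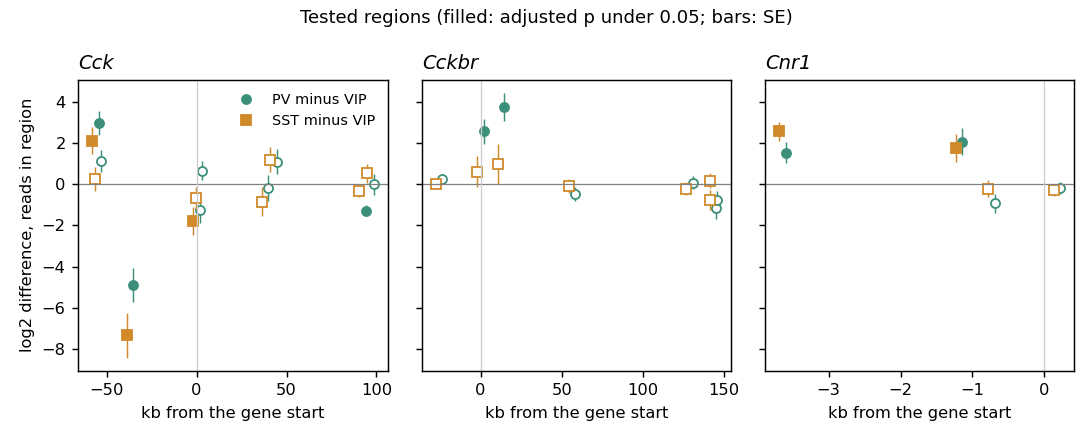
Log2 difference in reads of PV minus VIP (green circles) and SST minus VIP (orange squares) with SE bars, for the tested regions by distance in kb from the start of each gene in the direction of transcription. Filled points passed an adjusted p of 0.05, points of a pair are offset sideways for legibility, and the lowest point at Cck has 0 reads in both SST replicates, so that its size depends on the prior count of the fit.

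Summed over all regions within 100 kb, those of neighbouring genes included, the reads differed little between types. Over the 6 samples, the Fam160a2 start alone held 1338 reads at Cckbr, where sums were 385 to 465 per sample. The Trak1 exon held 380 at Cck, where sums were 280 to 385. The sums are thus not of the members alone, and differences in single regions are diluted in them. At Cck the reads scaled by the TMM library size (RPM) were 242 and 231 in VIP, 195 and 227 in PV and 219 and 185 in SST samples. VIP lay above the other 4 samples by 0.20 on the log2 scale, with an exact two-sided permutation p of 0.133, the smallest that 2 against 4 samples allow, so p under 0.05 could not be reached. At Cckbr they were 302 and 361 in PV, 290 and 250 in VIP and 294 and 239 in SST samples, and PV lay above the others by 0.31 (exact permutation p = 0.133). At Cnr1 they were 106 and 87.1 in VIP, 91.0 and 96.3 in PV and 107 and 96.2 in SST samples, and VIP differed from the others by -0.025 (exact permutation p = 0.8). Adjusted over the 3 genes, these p were 0.2, 0.2 and 0.8 by the exact permutation test.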

How the data were processed

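snRNA-Seq UMI counts of 1 V1 sample (10 libraries) and ATAC-Seq read counts of 6 samples (2 each of SST, PV and VIP) were used. For snRNA-Seq, the authors aligned inDrops reads to GRCm38 plus contigs of the viral barcodes, and deposited raw UMI counts for each barcode. For ATAC-Seq, the authors trimmed reads (Trimmomatic 0.33), aligned them to mm10 (Subread 1.4.6-p3), removed duplicates and counted reads over 323369 merged peak regions, deposited as raw counts. These regions join peaks of the 6 samples and of further ATAC-Seq experiments of their laboratory. No shift of reads to the transposase cut is described in the sources used here. The deposited phyloP score is the authors' mean over each region, and their peak lists, with a deposited −log10 q-value, were called per replicate by both MACS2 and HOMER. The authors' specificity values of viral elements were not used.

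The analysis kept 32335 of 47348 barcodes, those above 200 non-viral UMIs. Among kept nuclei, 5476 of 25866 distinct barcode names occur in more than 1 library, and each library was treated apart. A class needed at least 3 UMIs of its markers and 75% of all class marker UMIs, and a subtype at least 2 UMIs and 67%. The members and lists were chosen with earlier results of these data known, and the gate thresholds were set from marker UMIs after the files were read. Slc1a2 was not scored, and L5 NP-like nuclei (41, under the minimum of 50) were left out. No doublet caller was run. Nuclei whose highest class held under 75% of class marker UMIs fell outside the gates, but nuclei with a smaller part of other class markers stayed in them. Named genes were the members, genes of the 2 pathway lists at least 2-fold higher in a type with 30 UMIs or needed beside them, gate and subtype markers, and the 3 genes most correlated with each member (log2 with 0.1 added). Ratio intervals are exact binomial intervals of the paired UMI sums.

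ATAC-Seq regions were matched to GENCODE M21 (GRCm38) and RefSeq sequence of GRCm38.p6, and tested with edgeR 4.0.16 in R 4.3.3 (quasi-likelihood, TMM, filterByExpr, 40338 regions, Benjamini-Hochberg) over all 6 samples. The biological coefficient of variation was 0.181. In data simulated for SST against PV, a log2 change of 2 was given to 200 of 40338 regions, and the fit recovered 133 (66.5%) with 4 false calls. The simulation gave all regions the same spread and changed fewer regions than were called in the data. Its figures need not hold for the regions near the members. DESeq2 1.42.0 was an alternative, as were other scalings, filters, windows, depths and left-out libraries. Other calculations used python 3.11.15, numpy 2.4.6, scipy 1.17.1 and pandas 2.3.3.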

Additional observations from a re-analysis of the deposited data

Results flagged for a closer look

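Of 35 groups of 10 libraries (a member in a nuclei type, with at least 30 UMIs), 1 had a library far from the others, where chance gives about 1 in 20 groups. Cck in SST-like nuclei was 4.09 UMIs per 10000 in library 1-1, and the next highest library had 1.25, a gap of 0.694 of the range, above Dixon's critical value for 10 values. In that library 14 Cck UMIs lay in 5 of 35 nuclei, and the excitatory markers summed to 3.21 per 10000 against 1.83 in the other libraries. Without it, Cck in SST-like nuclei was 0.713 (0.488 to 1.01) in place of 0.952. The part of excitatory RNA in this value was not tested.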

How the results depend on the processing

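The snRNA-Seq ratios named in this paragraph kept their direction in all 18 alternatives each. The other printed ratios between types were not run under these alternatives. The Cck ratio of excitatory-like over inhibitory-like nuclei moved to 3.20 with Slc1a2 scored, an alternative chosen after seeing the data, and to 3.08 as a mean over nuclei. VIP-like over SST-like and PV-like nuclei moved to 5.61 for Cck and 13.3 for Cnr1 as a mean over nuclei, and to 12.6 for Cnr1 when thinned. Cnr1 in inhibitory-like over excitatory-like nuclei moved to 4.50 with Slc1a2 scored, and Cckbr in excitatory-like over inhibitory-like nuclei to 2.54 in library set 1 alone.

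In ATAC-Seq, the counts of called regions near the members moved with the processing. SST against PV went from 2 to 0 without the filter, 0 with DESeq2 and 0 to 4 with a replicate left out (0 without PV replicate 2, 1 without PV replicate 1, 4 without either SST replicate). SST against VIP went from 5 to 2 without the filter, 2 with DESeq2 and 2 to 6 with a replicate left out (2 without VIP replicate 2 or SST replicate 1). PV against VIP had 7, 5 without the filter, 5 with DESeq2 and 5 to 14 with a replicate left out (13 and 14 without SST replicate 1 and 2). Over all regions, the 3 comparisons had 3344, 14633 and 19824 calls, against 0, 7019 and 10868 without the filter and 411, 7456 and 11614 with DESeq2, and left-out replicates gave 806 to 8576, 8581 to 19017 and 12980 to 27615. DESeq2 ended 5 of the 14 called differences and gave no adjusted p for 2 more. Lost for SST against VIP were the Cck start (DESeq2 adjusted p = 0.161), 56.0 kb upstream of Cck (0.0684) and 1.19 kb upstream of Cnr1 (0.191). Lost for PV against VIP were 3.65 kb (DESeq2 adjusted p = 0.11) and 1.19 kb (0.0924) upstream of Cnr1. Over all tested regions, same-numbered replicates did not deviate together (correlations of 0.0233, -0.0366 and 0.0297). This gave no sign of a pairing, but a shared effect in some regions was not tested. With the replicate number as a block the counts were 1, 4 and 7, and both lost calls are printed in the report, at the Cckbr start (edgeR adjusted p = 0.0547) and 1.19 kb upstream of Cnr1 (edgeR adjusted p = 0.0564).

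Only differences that were not called changed sign. Summed reads near Cnr1 went from -0.025 to 0.018 within 50 kb, 0.00112 with total reads as library size, and -0.16 to 0.11 with a replicate left out. SST minus PV at the Cnr1 start was 0.013 without the filter and -0.32 to 0.19 with a replicate left out. With a replicate left out it was -5.79 to 0.42 at the Cck start, -0.53 to 0.065 at the Fam160a2 start and -1.29 to 0.38 at 1.19 kb upstream of Cnr1. SST minus VIP at the Cckbr start ran from -0.42 to 1.14, and at the Fam160a2 start it was -0.020 with RLE size factors, -0.17 without the filter, -0.020 with DESeq2 and -0.32 to 0.27 with a replicate left out. PV minus VIP at the Fam160a2 start was -0.034 without the filter. A lone replicate was assumed to vary like the other groups. Depth limits both assays: Cckbr rests on 102 UMIs in inhibitory-like nuclei, and 111 of the 131 regions were not tested.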

Other observations

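Nuclei that passed no gate, 16145 with a median of 491 UMIs, had Cck at 9.06 UMIs per 10000, Cckbr at 1.22 and Cnr1 at 2.62. Microglia-like nuclei had Cck at 2.63 (1.76 to 3.78) and oligodendrocyte-like nuclei at 3.09 (2.66 to 3.57), above astrocyte-like nuclei at 1.54 (1.31 to 1.81), at median depths of 319, 303 and 388 UMIs and with the excitatory markers at 8.16, 8.36 and 4.88 per 10000. The part of free RNA in these levels was not tested.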
